A study of Triticum aestivum with 4 samples.

Results

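The aspartic proteinases described here are 12 probe sets of the wheat genome array, out of 61290 on it. The starting members were 6 probe sets from the study's lists of changed transcripts, which show only a part of those it called changed. Their rice or Arabidopsis match is described there as an aspartic proteinase or aspartyl protease. The other 6 share a sequence cluster with one of them. A probe set is a group of short DNA probes on the array, read together for 1 transcript, and the first number of its name gives the cluster. The 12 fall into 5 clusters, named Ta.10216, Ta.23348, Ta.25381, TaAffx.110726 and TaAffx.56014. The 6 listed probe sets were selected on the same UD-2 against WT difference that is described here, all of them as lower in UD-2. Their differences are therefore given as a description with no test. The 6 cluster mates came in by name, but they were hybridised to the same arrays and may read the same transcripts as the listed ones. None of the 12 has a wheat gene in the platform annotation, so the names below are those of the closest rice and Arabidopsis genes. Such matches were at hand for the 6 listed probe sets only. The 6 mates are counted as aspartic proteinases by their cluster alone.

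Aspartic proteinases cut proteins with a pair of aspartate residues in the active site, work best in acid, and in plants are found in the vacuole, the cell wall and the chloroplast. Most plant members are made as inactive precursors. Nepenthesins, to which 5 of the 6 listed probe sets were matched in rice, were named after the digestive proteases in the pitcher fluid of the carnivorous plant Nepenthes, and the name now covers a large family of secreted and organellar enzymes. The Arabidopsis match of 4 of the 6 is described as a chloroplast nucleoid DNA-binding protein. The protein of that name in tobacco, CND41, is an aspartic protease that binds plastid DNA and takes part in the breakdown of Rubisco in ageing leaves. The flag leaf is the last leaf of the wheat stem and the main source of nitrogen and sugar for the grain, which at later stages draws on leaf protein that proteases have degraded.

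RNA was taken from flag leaves at anthesis of UD-2 and WT wheat, with 2 arrays for each line and RNA pooled from 3 plants on each array, different plants for each. UD-2 is 1 T2 transformation event of the genotype CB037, in which the maize transcription factor ZmDof1 is driven in all tissues by the sugarcane UBI4 promoter, on a plasmid that also holds an NPTII selection cassette, and WT is CB037 without it. With a single event, effects of ZmDof1 and of the insertion or selection cannot be told apart. Both lines stood side by side in a greenhouse with 10 h of light and 14 h of dark, at 29°C by day and 24°C at night, with normal water and fertilizer.

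Values are log2 signals, so that a difference of 1 is a doubling, and signals of different probe sets are not comparable as transcript levels. The UD-2 arrays had median log2 signals of 4.54 and 4.53, and the WT arrays of 4.60 and 4.58. The background level, set by Bacillus transcripts that wheat lacks, was 3.93 and 3.99 in UD-2 and 4.17 and 4.15 in WT. Of 31 probe sets for leaf transcripts (rbcL, PsbO and PsbP), 15 were above background on all 4 arrays and 14, all for rbcL, were under it on all 4. The leaf transcripts PsbO and PsbP were bright, PsbO reading 13.03 and 13.11 in UD-2 and 13.42 and 13.29 in WT (Ta.841.1.S1_a_at), while 13 of 17 probe sets for grain storage proteins lay under background on all 4 arrays. The brightest of the 17, for an avenin-like protein (Ta.27777.1.S1_at), read 10.79 and 10.66 in UD-2 and 10.27 and 10.36 in WT. All 27 hybridization controls, added in the laboratory, had a higher mean in UD-2, by a median of 0.27. The 3′ minus 5′ signal of 7 wheat control transcripts, a sign of RNA quality, overlapped between the lines for 5. It was higher in UD-2 for 1 (ef1a) and lower for 1 (gapdh), each with 1 end under background on all 4 arrays. Only G-6-PDH and ubiquitin were above background at both ends on every array, and for both the lines overlapped. The part of these differences in the results was not tested.

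All 6 listed aspartic proteinase probe sets gave less signal in both UD-2 pools than in either WT pool. The same held for 25.9% of all probe sets tested. For the 6 listed ones the UD-2 signal was between 34.7% and 42.6% of the WT signal, or 2.35-fold to 2.88-fold lower. Their median log2 difference was −1.32. Over all 61115 probe sets tested the median difference was −0.02. In the limma fit over all of them, 0.281% had an adjusted p under 0.05 and were lower in UD-2, and 0.43% were higher (172 and 263 probe sets). When the arrays were first centred on their medians, these counts became 319 lower and 797 higher, and with any 1 of the 4 arrays left out 0 probe sets passed the test with limma (5114 to 8779 at an unadjusted p under 0.05), while all 6 listed ones stayed lower in UD-2. All 6 listed probe sets were among the 172. Since the study listed them for the same difference, nothing is read from this or from their staying lower. In leaf RNA, fewer cells of a type and less RNA per cell cannot be told apart.

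TaAffx.110726.1.S1_s_at showed the largest difference of the 6. It is matched to a nepenthesin-2 precursor in rice and to the chloroplast nucleoid DNA-binding protein in Arabidopsis. Its log2 signal was 7.30 and 7.02 in UD-2, compared with 8.83 and 8.55 in WT. Both lines varied between pools by nearly the same amount, 0.28 in UD-2 and 0.29 in WT, and the gap between the lowest WT pool and the highest UD-2 pool was 1.25. The difference of means was −1.53 (standard error 0.16), a 2.88-fold decrease.

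Ta.23348.1.A1_at has the same pair of matches. It read 10.28 and 10.32 in UD-2, compared with 11.46 and 11.85 in WT, a difference of −1.36 (standard error 0.16). The UD-2 pools were nearly equal, while the WT pools differed by 0.39, the widest spread within a line among the listed probe sets. Ta.23348.1.A1_x_at of the same consensus sequence read 10.07 and 10.08 in UD-2, compared with 11.29 and 11.60 in WT, a difference of −1.37 (standard error 0.14). Its name ends in _x_at, which marks probes that can also match other sequences. The 2 probe sets moved together on every array. Ta.23348.1.A1_at was above Ta.23348.1.A1_x_at by 0.21 and 0.24 in UD-2 and by 0.18 and 0.25 in WT. Being of the same consensus sequence, the 2 are not read as independent measurements. Whether they read the same transcripts was not tested.

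Ta.25381.1.S1_s_at is the only one of the 6 that is not matched to a nepenthesin. Rice describes it as an aspartic proteinase and Arabidopsis as an aspartyl protease family protein. It read 8.19 and 8.30 in UD-2, compared with 9.68 and 9.36 in WT, a difference of −1.28 (standard error 0.15). The gap between the lines, 1.07, was more than 3 times as wide as the 0.31 between the WT pools. It is alone in its cluster on the array, and its ending _s_at marks probes shared by several transcripts.

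TaAffx.56014.2.S1_x_at, matched to a nepenthesin-2 precursor in rice and to the aspartyl protease family in Arabidopsis, was the most even of the 6. It read 6.67 and 6.58 in UD-2, compared with 7.87 and 7.91 in WT. The pools of a line differed by at most 0.09, against a difference between the lines of −1.27 (standard error 0.11).

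Ta.10216.1.A1_at, again with matches to nepenthesin-2 and to the chloroplast nucleoid DNA-binding protein, showed the smallest difference. It read 6.68 and 6.47 in UD-2, compared with 7.73 and 7.88 in WT, a difference of −1.23 (standard error 0.13) and a 2.35-fold decrease. The lines were 1.05 apart at their nearest pools, the narrowest gap of the 6.

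**Figure D1:**
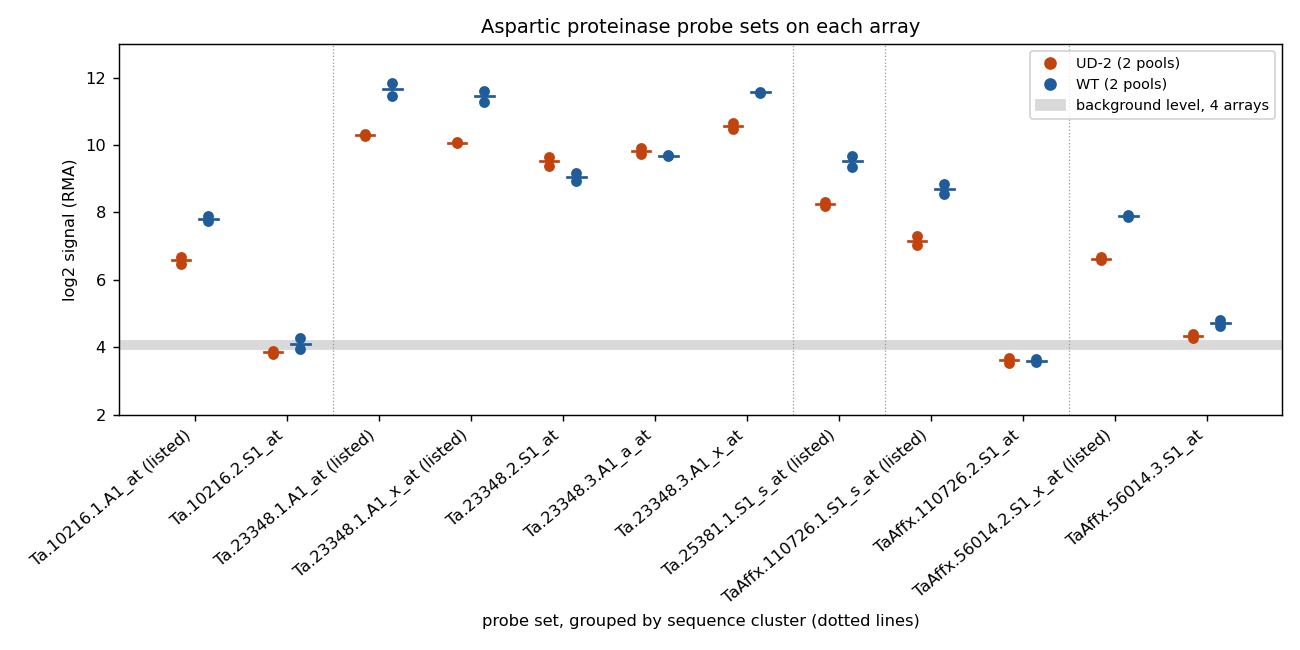
Log2 signal of the 12 aspartic proteinase probe sets (x axis, grouped by cluster), with the 2 UD-2 pools left of the 2 WT pools, short lines at the means and the background level in grey. In each of the 6 listed probe sets both UD-2 points lie below both WT points, by 1.05 to 1.25 at the nearest pools, while Ta.23348.2.S1_at and Ta.23348.3.A1_a_at lie slightly higher in UD-2.

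Among the 6 cluster mates the picture was mixed, with 1 that passed the same test as lower in UD-2 and 0 as higher. Of all probe sets tested, 0.281% passed as lower and 0.43% as higher. The median difference of the 6 mates was −0.12. Both UD-2 pools lay below both WT pools in 3 of them and above in 2, and the lines overlapped in 1. Over all probe sets tested, both UD-2 pools lay below both WT pools in 25.9% and above in 22.2%. An unadjusted p under 0.05 from limma was found for 3 of the 6 mates, and for 17.1% of all probe sets.

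Cluster Ta.23348, the largest with 5 probe sets, was split. The mate Ta.23348.3.A1_x_at fell with the listed pair. It read 10.47 and 10.65 in UD-2, compared with 11.54 and 11.58 in WT, a difference of −1.0 (95% interval −1.30 to −0.71, adjusted p = 0.0369 from limma). It is not in the study's lists, which show only a part of its calls, so whether the study called it is not known. The listed pair of the cluster, at −1.36 and −1.37, was selected on this difference and is given no test. With Benjamini-Hochberg adjustment the limma p of Ta.23348.3.A1_x_at was 0.0522, so that this call depends on the adjustment. With any 1 of the 4 arrays left out its difference stayed between −1.09 and −0.91 and its adjusted p from limma ran from 0.187 to 0.438, in fits where 0 of all probe sets passed.

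The other 2 probe sets of the cluster pointed upwards without passing the test. Ta.23348.2.S1_at read 9.64 and 9.39 in UD-2, compared with 8.92 and 9.18 in WT, a difference of 0.46 (95% interval 0.09 to 0.83, adjusted p = 0.163 from limma). Ta.23348.3.A1_a_at read 9.90 and 9.75 in UD-2, compared with 9.67 and 9.69 in WT, a difference of 0.14 (95% interval −0.15 to 0.43, adjusted p = 0.41 from limma). For both probe sets the UD-2 pools were the higher ones, but the nearest pools of the lines were only 0.21 and 0.05 apart.

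Gaps between probe sets on the same array, where a shift of the whole array cancels, were also taken. Those of Ta.23348.1.A1_at restate the difference on which it was selected. The signal of Ta.23348.1.A1_at was above that of Ta.23348.2.S1_at by 0.64 and 0.93 on the UD-2 arrays, against 2.54 and 2.67 on the WT arrays. Against Ta.23348.3.A1_a_at the distance was 0.38 and 0.58 in UD-2, and 1.80 and 2.16 in WT. Between mates of the third consensus sequence, neither of them listed, Ta.23348.3.A1_x_at stood above Ta.23348.3.A1_a_at by 0.57 and 0.90 in UD-2, compared with 1.87 and 1.89 in WT. The ending _a_at marks probes that match alternative transcripts of 1 gene. The gap between these 2 mates was thus narrower on both UD-2 arrays than on either WT array. Probes of an _x_at set can also match other sequences, so Ta.23348.3.A1_x_at may read the same transcripts as the listed pair. In that case this gap is not free of the selection either. The probe sequences that would show which wheat genes each probe set reads were not analysed here.

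**Figure D2:**
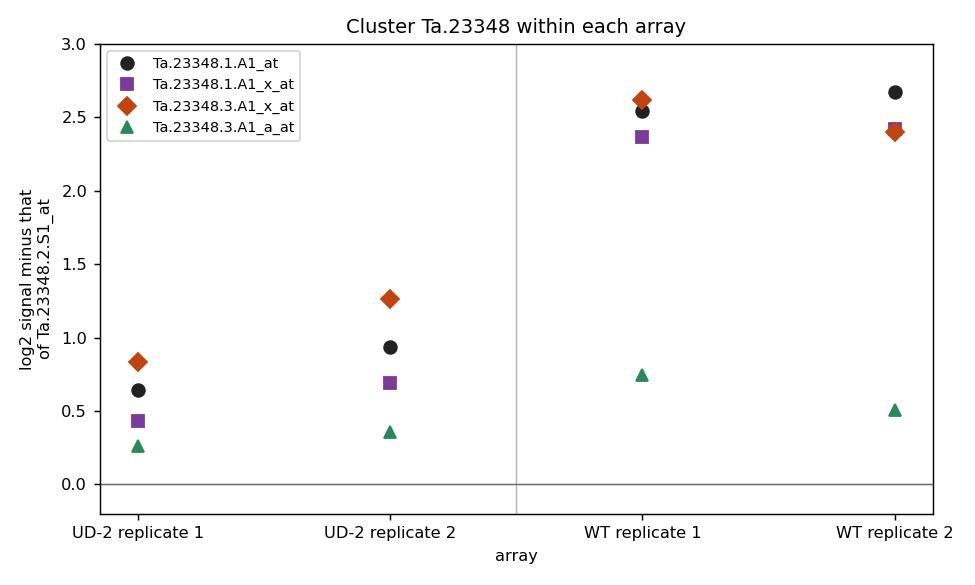
Log2 signal of 4 probe sets of cluster Ta.23348 minus that of Ta.23348.2.S1_at on the same array (y axis), for the 2 UD-2 arrays and the 2 WT arrays (x axis). The listed pair and Ta.23348.3.A1_x_at lie 0.43 to 1.26 above Ta.23348.2.S1_at in UD-2 and 2.36 to 2.67 above it in WT, while Ta.23348.3.A1_a_at lies 0.26 and 0.36 above it in UD-2 and 0.74 and 0.51 above it in WT.

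The mates in the remaining clusters were dim. TaAffx.56014.3.S1_at read 4.40 and 4.27 in UD-2, compared with 4.79 and 4.63 in WT, a difference of −0.38 (95% interval −0.69 to −0.08, adjusted p = 0.16 from limma). It was above background on all 4 arrays, by less than 1 on the log2 scale, and did not pass the test. Ta.10216.2.S1_at read 3.90 and 3.81 in UD-2, compared with 4.27 and 3.95 in WT, and was above background on 1 array only. TaAffx.110726.2.S1_at read 3.68 and 3.54 in UD-2, compared with 3.64 and 3.55 in WT, and was under background on all 4. For these last 2 probe sets the arrays do not show whether the transcript differs between the lines, and the listed probe set of each of the clusters was far brighter. Thus 10 of the 12 members were above background on every array.

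**Figure D3:**
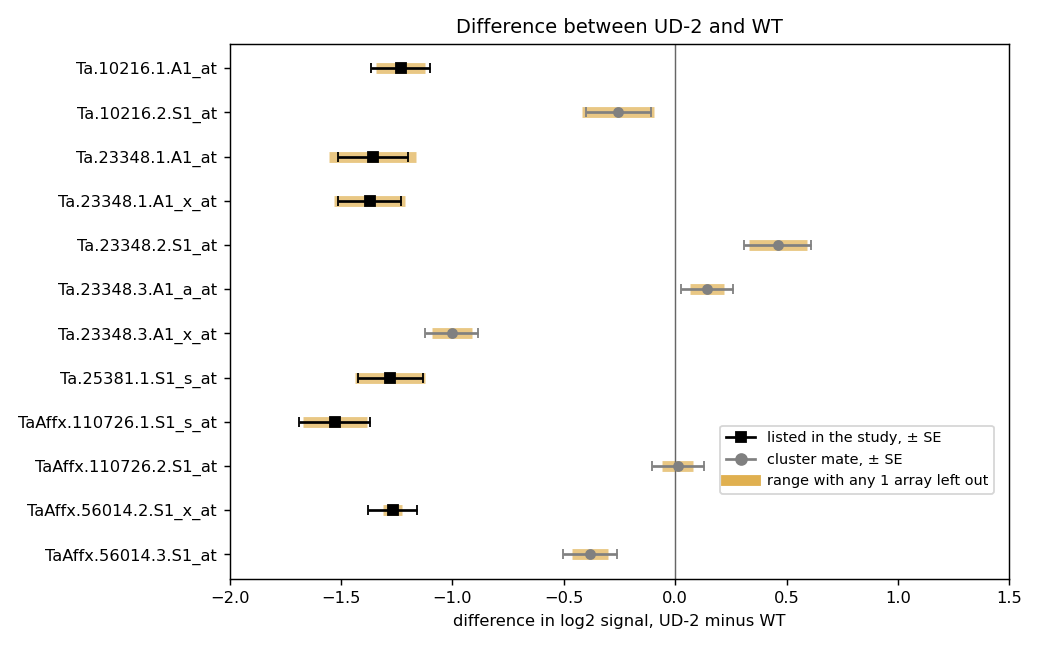
Difference in log2 signal, UD-2 minus WT (x axis), for the 12 probe sets, with squares for the listed ones, circles for cluster mates, bars of 1 standard error, and bands for the range when any 1 of the 4 arrays is left out. The listed probe sets sit between −1.53 and −1.23 and their bands stay between −1.67 and −1.12, while 5 of the 6 mates lie between −0.38 and 0.46.

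The 6 listed differences, on which the probe sets were selected, spanned 0.30 on the log2 scale. The pools of a line differed by a median of 0.10 in UD-2 and 0.30 in WT over the 6, against 0.15 in UD-2 and 0.14 in WT over all probe sets. By the median, the listed probe sets were thus more variable between the WT pools than a typical probe set. TaAffx.56014.2.S1_x_at, at 0.04, was less so, and Ta.10216.1.A1_at, at 0.15, was close to typical. The WT pool with the higher signal was replicate 1 for Ta.25381.1.S1_s_at and TaAffx.110726.1.S1_s_at and replicate 2 for the other 4. Among the 172 probe sets lower in UD-2, whose median difference was −1.21, the listed ones were of middle size. For TaAffx.110726.1.S1_s_at 50 of the 172 fell further, and for Ta.10216.1.A1_at 78 did.

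**Figure D4:**
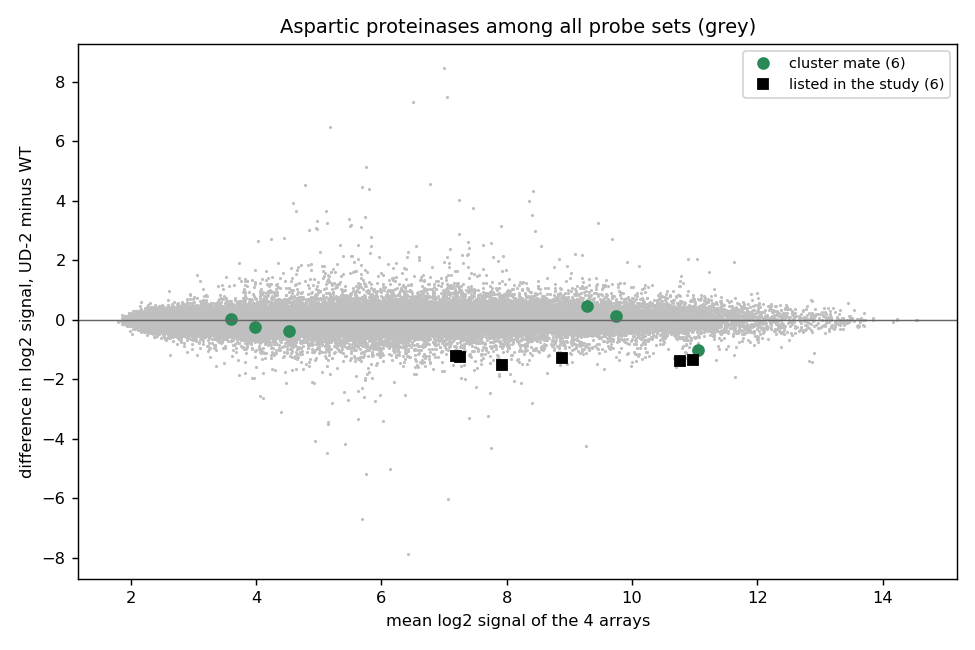
Difference in log2 signal, UD-2 minus WT (y axis), against the mean log2 signal of the 4 arrays (x axis), for all 61115 probe sets in grey, the listed aspartic proteinases as black squares and their cluster mates as green circles. The squares lie along the lower edge of the grey cloud between −1.53 and −1.23 at very different signals, and 5 of the 6 circles lie within it near 0.

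Many other transcripts shared the pattern of the listed probe sets over the 4 arrays. Likeness was taken as the distance between the 4 centred log2 values of a probe set and the mean of the centred values of the 6. The nearest non-member was Ta.21463.1.S1_at, at a distance of 0.06, at 5.03 and 4.94 in UD-2 compared with 6.35 and 6.32 in WT. The next was the osmotin Ta.8359.1.S1_s_at, of a family of defence and osmotic stress proteins, at 0.07, at 5.37 and 5.31 in UD-2 compared with 6.67 and 6.79 in WT. They were followed by TaAffx.65722.1.S1_at at 0.08, by Ta.30321.1.S1_at, matched to an abscisic stress-ripening protein, at 0.10, and by TaAffx.103666.1.S1_at at 0.11. The listed probe sets themselves lay from 0.07 (TaAffx.56014.2.S1_x_at) to 0.34 (TaAffx.110726.1.S1_s_at) from their own mean, and between 2 and 50 non-members lay nearer to it than each of them. With 4 arrays in 2 lines, such a likeness reflects little more than a similar fall in UD-2.

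The study's lists hold 8 further probe sets matched to peptidases or to inhibitors of enzymes, chosen by the same difference and given here as values. Among the peptidases, Ta.22359.1.S1_at, matched to a serine-type endopeptidase, was lower, at 4.95 and 4.57 in UD-2 compared with 6.73 and 6.69 in WT. The match of Ta.611.1.A1_at is ULP1B, a cysteine-type protease that in Arabidopsis belongs to the enzymes that remove ubiquitin-like proteins. It read 2.39 and 2.57 in UD-2, under background, against 10.03 and 10.71 in WT, at least 85.1-fold lower. The M48 peptidase Ta.26911.1.S1_at, of a family of metalloproteases, was higher, at 12.25 and 11.89 in UD-2 compared with 9.95 and 10.08 in WT. So was TaAffx.122846.3.S1_s_at, matched to a serine carboxypeptidase, an enzyme class that trims proteins from the carboxyl end, at 7.28 and 6.81 in UD-2 compared with 5.15 and 5.19 in WT. The mate of ULP1B, Ta.611.2.S1_at, was also lower (difference −5.17, adjusted p = 0.00363 from limma). It read 3.18 and 3.14 in UD-2, under background, compared with 7.89 and 8.78 in WT. The difference therefore does not give the size of its fall. The 4 cluster mates of the carboxypeptidase did not pass the test, the nearest being TaAffx.122846.2.S1_s_at with a difference of 1.60 (adjusted p = 0.0517 from limma). TaAffx.122846.1.S1_at had a difference of 1.21 (adjusted p = 0.0921 from limma). TaAffx.122846.3.S1_at was under background on all 4 arrays and TaAffx.122846.2.S1_at above it on 1 only, so that these could show little.

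All 4 inhibitor probe sets of the lists were higher in UD-2. Those for the potato inhibitor I type, small proteins that block serine proteases, read 10.27 and 9.62 in UD-2, compared with 7.21 and 6.69 in WT (Ta.18619.1.S1_s_at), and 11.34 and 10.73 in UD-2, compared with 8.44 and 8.22 in WT (Ta.22614.1.S1_at). Ta.18186.1.A1_at, of the protease inhibitor and lipid transfer family, read 6.62 and 6.08 in UD-2, compared with 3.34 and 3.30 in WT, where it was under background. Ta.8814.1.A1_at is matched to a xylanase inhibitor and to the extracellular dermal glycoprotein, whose proteins have the fold of aspartic proteinases but do not cut proteins. It read 5.86 and 5.56 in UD-2, compared with 4.09 and 4.01 in WT, just under background, so that it was at least 2.93-fold higher.

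**Figure D5:**
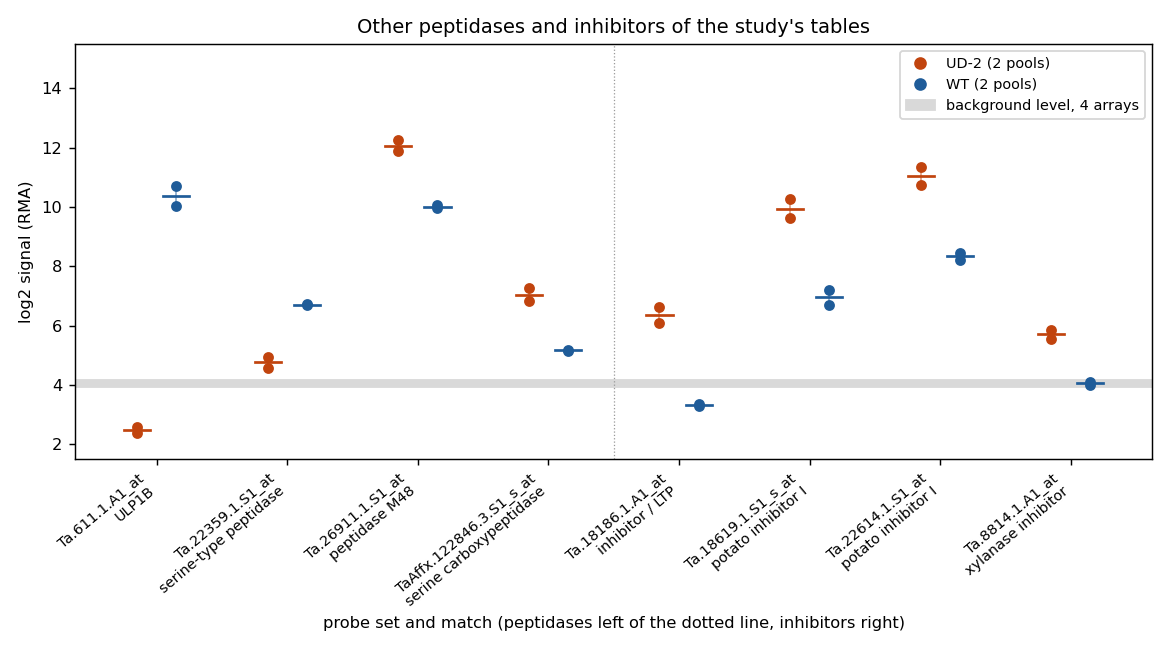
Log2 signal of the 8 other probe sets of the study's lists that are matched to peptidases (left of the dotted line) or inhibitors (right of it), with the 2 UD-2 pools left of the 2 WT pools and the background level in grey. The 4 inhibitors and 2 of the 4 peptidases lie higher in UD-2, and ULP1B and the serine-type peptidase lie lower.

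The wheat gene names that the annotation gives were searched for proteases and inhibitors irrespective of the lists. They cover 200 of the probe sets and hold no aspartic, cysteine, serine or metalloprotease by the words searched. The aspartic search found only Ta.232.1.S1_at, whose name TaPCS1 is that of wheat phytochelatin synthase and not of the Arabidopsis aspartic protease PCS1. It read 6.48 and 6.25 in UD-2, compared with 6.59 and 6.63 in WT, and did not pass the test (adjusted p = 0.274 from limma). The inhibitor search found 3 serpins, irreversible inhibitors of serine proteases that are abundant in the grain, and 0 of them passed the test with limma, with 1, Ta.119.1.S1_x_at, at an unadjusted p under 0.05, which 17.1% of all probe sets had. Their differences ran from −0.18 for Ta.117.1.S1_at to 0.30 for Ta.119.1.S1_x_at, and 2 of the 3 were under background on all 4 arrays. How other aspartic proteinases of the array behaved in UD-2 is thus not shown by the annotation used here.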

How the data were processed

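The authors hybridised RNA to the Affymetrix GeneChip Wheat Genome Array, processed the probe intensities by robust multiarray average (RMA) in the Affy package, which corrects the background, equalises the arrays and joins the probes of a set, and deposited 1 log2 value per probe set and array. RMA sets all arrays to a common distribution, so that only relative changes can be seen. The submitters' processing notes name R 3.1.1, RMA and limma. Probe intensities were not analysed here.

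Members were found by their descriptions in the study's tables and by cluster name, and the tables' fold changes and p-values were not used. The members, lists and the rule for naming were chosen with earlier results of these data known. Of 61290 probe sets, 175 controls were left out. UD-2 was compared with WT over the other 61115 with limma 3.58.1 (lmFit and eBayes, no covariates) under R 4.3.3. Adjusted p-values are q-values after Storey and Tibshirani, as in the study's methods (lambda 0.05 to 0.95 in steps of 0.05, share unchanged 0.708, threshold 0.05). The study reported fewer changed transcripts at this threshold than the 263 higher and 172 lower called here. The counts with Benjamini-Hochberg adjustment, 142 higher and 98 lower, were nearer to its own. The reason was not tested. The fit was checked on simulated data. The background level is the 95th percentile of 42 Bacillus controls. Where both arrays of the lower line were under it, folds were taken against it. With 2 arrays per line, their number limits the precision. All 12 members were named, with the 5 non-members most like the listed ones, the other peptidases and inhibitors of the tables, and those of the annotation. Python 3.11.15 with pandas 2.3.3 and matplotlib 3.10.9 served for tables and figures.

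The alternatives were other adjustments and variance priors, a filter on dim probe sets, controls kept, 3 further normalizations, a replicate block and the omission of each array.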

Additional observations from a re-analysis of the deposited data

Results flagged for a closer look

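The log2 signal of RPTR-Ta-U57609-2_s_at, a reporter control outside the comparisons, was 11.22 and 10.70 in UD-2, compared with 4.62 and 5.47 in WT, a difference of 5.91. It stands out as signal in a probe set left out of the test, above the level in WT. The sources used here do not say which sequence it reads.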

How the results depend on the processing

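The 6 listed probe sets were lower in UD-2 under all 14 alternatives. Their median difference was between −1.39 and −1.26 with every array kept, and between −1.36 and −1.23 with any 1 array left out. Omitting an array could not turn the sign, as their pools do not overlap, and they were selected on this difference. Nothing is read from their staying lower. Over all probe sets, 435 passed the threshold, against 240 with Benjamini-Hochberg adjustment, 837 with robust eBayes, 1724 without dim probe sets, 685 with quantile normalization, 1116 with arrays centred on their median, 655 with cyclic loess and 27 with a replicate block. Without dim probe sets fewer were tested (35112). Benjamini-Hochberg adjustment uses the same p-values without the factor for the share unchanged, 0.708. For the others the cause was not tested. With any 1 array left out, limma called 0 probe sets, with 5114 to 8779 at an unadjusted p under 0.05. A line then rests on 1 array, which is assumed to vary like the other line. Of the cluster mates, 1 passed, and 0 did with Benjamini-Hochberg adjustment (3 at an unadjusted p under 0.05 from limma), with the replicate block or with any 1 array left out (0 to 0). The calls of all 6 listed probe sets were also lost with the replicate block and with any 1 array left out. Nothing in the labels ties arrays of the same number, whose deviations from the line means correlated at −0.09 over probe sets. TaAffx.110726.2.S1_at, at 0.01 and under background, turned to −0.03 without WT replicate 2 and to −0.059 without UD-2 replicate 1, within a range up to 0.081 with any 1 array left out. The 2 dimmest mates gave no value without dim probe sets. Background limits what these 2 mates can show.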
